A study of Mus musculus with 4 samples.

Results

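The data described here are the read counts of 10 HOX genes of the HoxC and HoxD clusters, those of paralog groups 1 to 9 that the clusters hold: Hoxc4, Hoxc5, Hoxc6, Hoxc8, Hoxc9, Hoxd1, Hoxd3, Hoxd4, Hoxd8 and Hoxd9. They were taken by symbol from tables of 23420 genes, without use of their values, and all 10 had a row. RNA was sequenced from E14, a wild type line of mouse embryonic stem cells kept without feeders on serum and leukemia inhibitory factor. All-trans retinoic acid (ATRA) had been given at 1 µM for 24 h before 2 of the libraries were made, and 2 control libraries were made at 0 h. The labels' protocol also describes differentiation through embryoid bodies, although every sample is labelled as embryonic stem cells. The titles give the dose as micromolar, whereas a treatment label of the ATRA samples has a millimolar unit. ATRA and 24 h of culture cannot be told apart, since the controls were taken at 0 h. The labels name dimethyl sulfoxide as vehicle without saying whether the controls received it, and they do not say whether replicates were separate cultures, so the p-values rest on a spread between libraries that could be technical.

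HOX genes encode homeodomain transcription factors that give cells their position along the head-to-tail axis. Mammals carry them in 4 clusters, A to D, and genes of the same paralog number in different clusters descend from a common ancestor. Low-numbered genes lie at one end of a cluster and are usually switched on earlier and closer to the head than high-numbered ones. Retinoic acid, bound by receptors at DNA elements inside and beside the clusters, is a known inducer of the low-numbered genes, and in embryonic stem cells the clusters are covered by Polycomb-associated chromatin.

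The HoxC genes lie on mouse chromosome 15 and the HoxD genes on chromosome 2, all on the plus strand with the low-numbered genes last. RefSeq promoter windows (GRCm38.p6, each around an annotated transcription start) were at hand for Hoxc4, Hoxd1, Hoxd3, Hoxd4, Hoxd8 and Hoxd9. They were searched on both strands for the receptor half-sites AGGTCA or AGTTCA or GGGTCA or GGTTCA, for direct repeats of these spaced by 1, 2 or 5 bases, for the CDX sites TTTATG and TTTATT, for the HOX/PBX site TGATNNAT and for the MEIS site TGACAG. The 4 windows that held a match are shown. Their genes differ in response, from Hoxc4, which passed the test, to Hoxd4, with a small fold. The Hoxd3 window also covers the start of the Hoxd4 gene as annotated, so it does not belong to Hoxd3 alone. Capitals mark half-sites and CDX sites on either strand, and in the Hoxd3 window a CDX site and a half-site overlap.
Hoxc4: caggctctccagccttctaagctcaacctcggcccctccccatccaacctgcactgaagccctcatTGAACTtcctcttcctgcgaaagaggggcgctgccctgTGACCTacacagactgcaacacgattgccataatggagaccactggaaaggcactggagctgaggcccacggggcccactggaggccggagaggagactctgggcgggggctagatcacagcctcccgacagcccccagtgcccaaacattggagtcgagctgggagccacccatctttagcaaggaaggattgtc
Hoxd3: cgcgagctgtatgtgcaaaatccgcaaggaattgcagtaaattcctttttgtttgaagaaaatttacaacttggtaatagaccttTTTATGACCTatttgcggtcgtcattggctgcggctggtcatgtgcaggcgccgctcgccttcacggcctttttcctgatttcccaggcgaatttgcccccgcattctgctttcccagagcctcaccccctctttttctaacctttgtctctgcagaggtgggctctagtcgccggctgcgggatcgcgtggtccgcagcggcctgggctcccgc
Hoxd4: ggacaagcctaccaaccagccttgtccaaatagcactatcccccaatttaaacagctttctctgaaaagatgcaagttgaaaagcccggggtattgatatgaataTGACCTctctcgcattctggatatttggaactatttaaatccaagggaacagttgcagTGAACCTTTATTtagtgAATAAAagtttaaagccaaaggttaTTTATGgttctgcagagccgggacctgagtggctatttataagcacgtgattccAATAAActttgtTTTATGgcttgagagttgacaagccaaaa
Hoxd8: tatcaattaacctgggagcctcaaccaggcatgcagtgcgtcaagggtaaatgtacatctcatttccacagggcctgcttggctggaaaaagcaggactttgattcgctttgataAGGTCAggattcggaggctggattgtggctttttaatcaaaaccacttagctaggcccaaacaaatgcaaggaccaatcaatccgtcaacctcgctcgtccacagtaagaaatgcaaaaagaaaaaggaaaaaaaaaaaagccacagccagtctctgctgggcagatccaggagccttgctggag

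The windows are chr15:103034145-103034444 for Hoxc4, chr2:74711743-74712042 for Hoxd3, chr2:74721728-74722027 for Hoxd4 and chr2:74704365-74704664 for Hoxd8. The Hoxc4 and Hoxd4 windows each held 2 half-sites, and those of Hoxd3 and Hoxd8 held 1 each. Half-sites were present in 43.7% of 32851 mouse promoter windows. None of the 6 windows held a direct repeat with any of the 3 spacings, a HOX/PBX site or a MEIS site, and the share of all windows that held one was 0.222%, 0.268% and 0.0974% for spacings of 1, 2 and 5, 8.85% for the HOX/PBX site and 19.2% for the MEIS site. The Hoxd4 window had 2 matches to TTTATG and 3 to TTTATT, which 11.9% and 19.6% of all windows hold, and the Hoxd3 window had 1 match to TTTATG. The Hoxd1 and Hoxd9 windows had no match to any of these motifs. They were GC-rich, at 69.7% and 68.3%, against a median of 52.7%, and held 29 and 20 CpG dinucleotides against a median of 7. The Hoxd3 window, at 54% GC, also held 20.

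The gene counts of a library summed to 13337972 and 11086233 with ATRA and to 31005634 and 21484812 in the controls. In the per-library scale used here, CPM (counts scaled to a common library size), 3 counts stood for 0.0940 to 0.309. All 12 listed stem cell markers had counts in every library; their summed level was 2809 and 2889 CPM with ATRA and 4985 and 4981 CPM in the controls, and 4 of them fell (edgeR, as below). Of 11 tested fibroblast markers none passed, with summed levels of 762 and 543 CPM with ATRA and 1461 and 1344 CPM in the controls. Of 11 tested mesoderm markers 3 fell, and the list summed to 34.3 and 47.4 CPM with ATRA, against 211 and 182 CPM in the controls, and 2 markers were at 0 in each ATRA library. Of 8 tested neural markers 2 rose and 1 fell (314 and 429 CPM with ATRA, 402 and 341 CPM in the controls), and of 8 tested endoderm markers none passed (329 and 324 CPM, against 478 and 430 CPM), Ttr being at 0 throughout. After GC correction 1 stem cell marker rose and 8 fell, and the numbers were 2 and 1 for fibroblast, 2 and 5 for mesoderm, 3 and 1 for neural and 4 and 1 for endoderm markers. The sums hide opposite directions. Of the 12 mesoderm markers 2 were higher in both ATRA libraries than in both controls and 8 were lower in both. For the 12 endoderm markers the numbers were 6 and 3. Of all genes with a count 34.4% were higher in this way and 35.9% lower. The part of cells of these types in the HOX values was not tested. In bulk RNA more cells with a transcript and more transcript per cell cannot be told apart.

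The 10 genes had few counts in the controls and, as a sum, more with ATRA, though single genes stayed near the counting limit. Together they had 314 and 217 counts in the ATRA libraries and 72 and 51 in the controls, or 22.3 ± 0.131 CPM with ATRA and 2.26 ± 0.0105 CPM in the controls (mean ± SD, n = 2 each). These SDs understate the error of the sums, since differences between libraries in opposite directions cancelled. In ATRA replicates 1 and 2 the HoxC genes summed to 14.9 and 15.9 CPM and the HoxD genes to 7.28 and 6.49 CPM. No gene exceeded 0.801 CPM in a control library, and Hoxc4, Hoxc5, Hoxc8, Hoxd1 and Hoxd8 were above 1 CPM in both ATRA libraries. In 9 of the 10 genes both ATRA libraries lay above both controls, and Hoxd9 was the exception. The same held for 34.4% of all genes with a count and for 40% of those tested, and 35.9% of those with a count lay below. Of the 10 genes 6 had enough counts for the test and 3 of these rose, Hoxc4, Hoxc5 and Hoxc8 (edgeR's quasi-likelihood test, Benjamini-Hochberg adjusted over 14256 genes, threshold 0.05). Without ATRA replicate 1, ATRA replicate 2, control replicate 1 and control replicate 2 in turn, 5, 6, 3 and 5 of the 10 genes passed. In these fits 5011 of 14917, 3491 of 14937, 51 of 14304 and 105 of 14432 tested genes rose, so the counts without an ATRA library stand beside a high background. In the fit of all 4 libraries 0.723% of tested genes rose and 0.407% fell. With no count filter 3 of the 10 genes passed, where 0.561% of all genes rose and 0.36% fell. The median log2 fold change over the 10 genes was then 3.44, also with Hoxd3 set at its lower bound, against −0.06 over all genes.

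**Figure D1:**
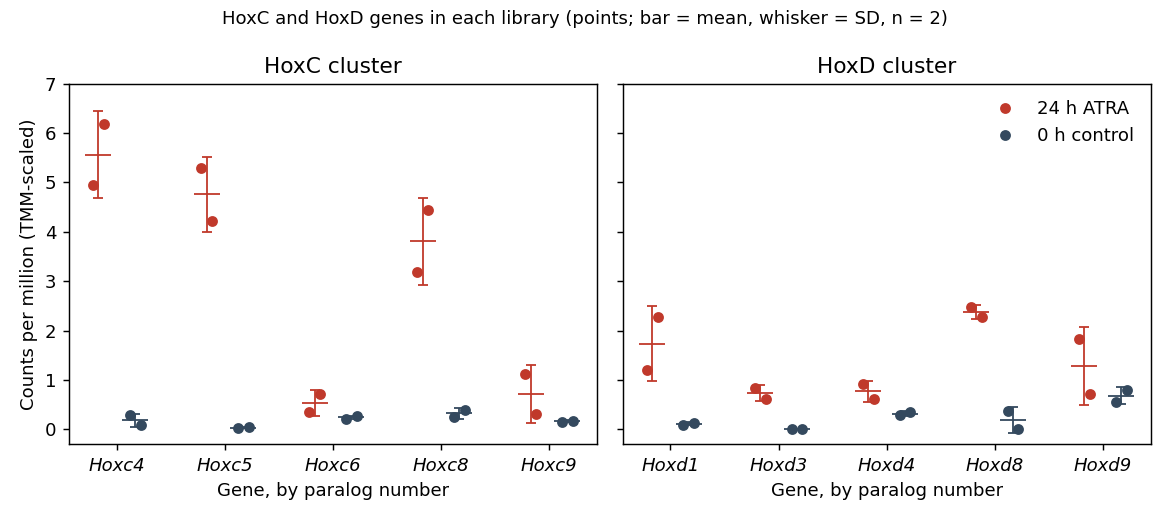
Level of each HoxC and HoxD gene in CPM (vertical axis) by gene, with ATRA libraries left of controls; points are libraries, bars means and whiskers SD (n = 2). Hoxc4, Hoxc5 and Hoxc8 stand at 3.18 to 6.18 CPM with ATRA, and every control point is at or below 0.801 CPM.

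In the HoxC cluster the 3 genes that rose supplied most of the signal. Hoxc4, a gene of the cervical part of the axis at chr15:103018934-103036852 (GENCODE M21, GRCm38), had 70 and 60 counts in the ATRA libraries and 9 and 2 counts in the controls. In CPM it stood at 4.95 and 6.18 with ATRA, against 0.282 and 0.0890 in the controls, with a wide gap between the groups. Its log2 fold change was 4.76 ± 0.55 (SE; edgeR adjusted p = 0.0343, n = 2 against 2).

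Hoxc5, a gene of the neck and upper thoracic region at chr15:102967443-103017429, had the largest ratio of counts among the genes of the 10 with a control count. It had 75 and 41 counts with ATRA and 1 and 1 in the controls. The ratio of the summed counts, scaled to library size, was 132-fold, with a 95% exact counting interval from 35.8 to 1105. The fitted log2 fold change was 6.79 ± 0.56 (SE; edgeR adjusted p = 0.0124). The annotated gene spans those from Hoxc6 to Hoxc9 and shares 5.37% of its exon length with Hoxc10, which had 3 and 2 counts with ATRA and 2 and 6 in the controls.

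Hoxc8, a gene of the thoracic axis and of forelimb motor neurons at chr15:102990607-102994111, had 45 and 43 counts with ATRA and 8 and 9 in the controls. The libraries of each group were close together and the groups far apart. Its log2 fold change was 3.55 ± 0.49 (SE; edgeR adjusted p = 0.0432). Without control replicate 1 the value was 3.20, and without control replicate 2 it was 3.87. With all 4 libraries the call was lost with edgeR's earlier quasi-likelihood method (edgeR adjusted p = 0.0583).

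The other HoxC genes were near the counting limit. Hoxc6, which helps to specify limb-innervating motor neurons (chr15:102998257-103011881), had 5 and 7 counts with ATRA and 7 and 6 in the controls, which at the smaller ATRA libraries is 2.10-fold with a counting interval from 0.878 to 5.00. Hoxc9, which sets thoracic motor neuron identity (chr15:102976439-102985099), had 16 and 3 counts with ATRA and 5 and 4 in the controls, 4.81-fold with an interval from 2.08 to 12.1. Its ATRA libraries disagreed, at 1.13 and 0.309 CPM, and the second was near the controls at 0.157 and 0.178 CPM. Both genes had too few counts for the test. Such intervals cover counting error only.

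Summed, the 5 HoxC genes had 365 counts with ATRA and 52 in the controls, 16.0-fold (counting interval 11.9 to 21.8), and the 5 HoxD genes 166 and 71, 5.33-fold (4.01 to 7.14). The intervals do not overlap, but they leave out the spread between libraries. Of the 5 HoxD genes 3 were tested, and none of these passed in the edgeR fit reported here. With DESeq2's size factors Hoxd1 passed (edgeR adjusted p = 0.0454), and with DESeq2's Wald test Hoxd1 and Hoxd8 passed (adjusted p = 0.00362 and 0.00561), where 603 and 4282 of all genes passed.

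Hoxd1, at the low-numbered end of its cluster (chr2:74762980-74765142) and known in mouse for its role in pain-sensing neurons, had 17 and 22 counts with ATRA and 3 and 3 in the controls. That is 1.20 and 2.27 CPM with ATRA, against 0.0940 and 0.134 CPM in the controls. The groups were apart, yet the log2 fold change of 3.85 ± 0.64 (SE) missed the threshold (edgeR adjusted p = 0.0573). Without control replicate 2 the value was 4.07 and passed (edgeR adjusted p = 0.0300), and without control replicate 1 it was 3.58 and did not (edgeR adjusted p = 0.152).

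Hoxd3, which shapes the uppermost neck vertebrae (chr2:74711927-74748442), had 12 and 6 counts with ATRA and 0 and 0 in the controls. Against a floor of 3 counts over the control group it was at least 13.7-fold higher with ATRA. It had too few counts for the filter. Without the filter its edgeR adjusted p was 0.0646.

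Hoxd4, active from the hindbrain downward and a classical retinoic acid-responsive gene (chr2:74711929-74729160), had 13 and 6 counts with ATRA and 9 and 8 in the controls. Scaled to library size it was 2.55-fold with a counting interval from 1.25 to 5.22, and without the filter its edgeR adjusted p was 0.178. Hoxd3 and Hoxd4 overlap in the annotation. Of the exon length of Hoxd3, 62.3% is shared with other genes on its strand, and of that of Hoxd4 52.3%, so how reads were split between them is uncertain.

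Hoxd8, a gene of the trunk (chr2:74704615-74707933), had 35 and 22 counts with ATRA and 12 and 0 in the controls. The ATRA libraries agreed, at 2.47 and 2.27 CPM, while the controls did not, at 0.376 and 0 CPM. The log2 fold change was 3.44 ± 0.82 (SE; edgeR adjusted p = 0.0673). Against control replicate 1 alone the ATRA counts were 6.36-fold higher, with a fitted log2 fold change of 2.63 (edgeR adjusted p = 0.109). Against control replicate 2 alone they were at least 17.9-fold higher (floor of 3 counts in that library, edgeR adjusted p = 0.0203).

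Hoxd9, which acts in the limbs and the lower spinal cord (chr2:74697727-74700208), was the most counted of the 10 genes in the controls, with 18 and 18 counts, against 26 and 7 counts with ATRA. Its ATRA libraries, at 1.84 and 0.722 CPM, lay above both and between the controls at 0.564 and 0.801 CPM, so the groups overlapped. The log2 fold change was 0.99 ± 0.57 (SE; edgeR adjusted p = 0.220).

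**Figure D2:**
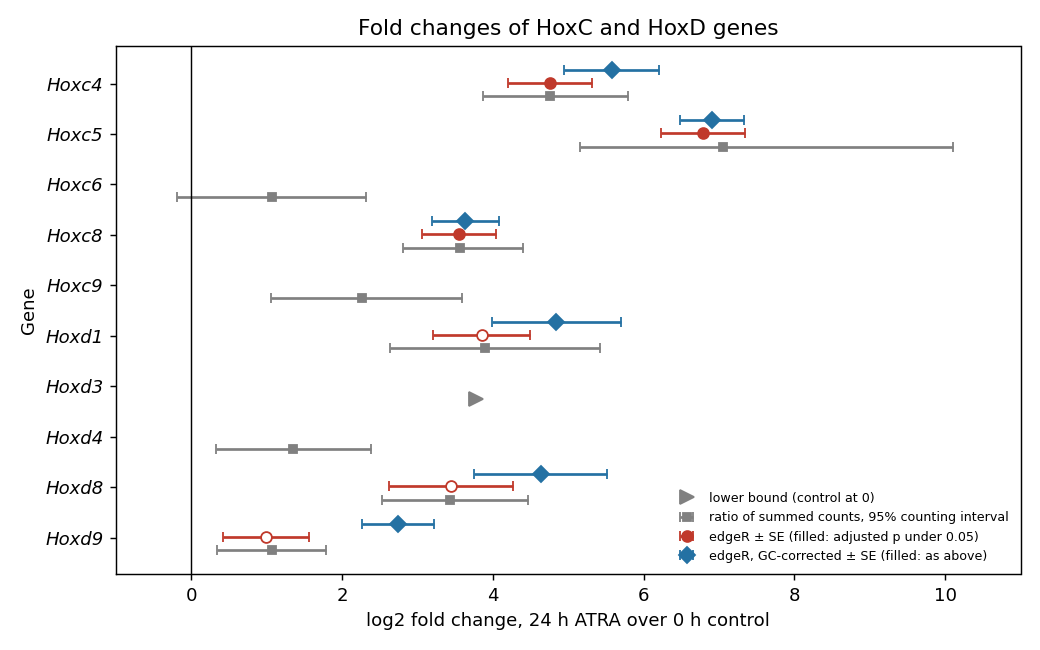
Fold change of each gene with ATRA over control on the log2 scale (horizontal axis), by gene. Grey squares are ratios of summed counts with 95% counting intervals, the grey triangle is the lower bound of 13.7-fold for Hoxd3, red circles are edgeR values and blue diamonds GC-corrected edgeR values, both ± SE and filled where the adjusted p was under 0.05. The corrected value of Hoxd9 stands at 2.75 and its uncorrected value at 0.99.

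Levels of different genes were compared per kilobase of exon. With ATRA the order was Hoxc4 (2.17 ± 0.341 CPM per kb, mean ± SD, n = 2), Hoxc5 (1.54 ± 0.245), Hoxc8 (1.34 ± 0.313), Hoxd1 (0.931 ± 0.405), Hoxd8 (0.864 ± 0.0528), Hoxd9 (0.599 ± 0.369), Hoxc9 (0.296 ± 0.239), Hoxd4 (0.261 ± 0.0719), Hoxc6 (0.223 ± 0.108) and Hoxd3 (0.175 ± 0.0387). Only Hoxc4 and Hoxc5 were neighbours in this order whose libraries did not overlap. In the controls Hoxd9 was highest at 0.320 ± 0.0786 CPM per kb, above the libraries of the next gene, Hoxc8 (0.115 ± 0.0375). Hoxc5 was the lowest gene with a count, at 0.0123 ± 0.00302 CPM per kb. The order did not follow position in the HoxC cluster: with ATRA, Hoxc6 lay below Hoxc5 on one side and Hoxc8 on the other in both libraries. Hoxd3 and Hoxd4 lay below Hoxd1 and Hoxd8, but their values per kb are uncertain. Other genes on their strand share 62.3% and 52.3% of their exon length, where reads could be lost or assigned elsewhere.

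The makeup of the summed counts changed accordingly. Hoxc5 made up 21.8% of the counts of the 10 genes with ATRA (exact 95% interval 18.4 to 25.6) and 1.63% in the controls (0.198 to 5.75). Hoxc4 made up 24.5% with ATRA (20.9 to 28.4) and 8.94% in the controls (4.55 to 15.4). Hoxd9 made up 6.21% with ATRA (4.32 to 8.62) and 29.3% in the controls (21.4 to 38.1). Hoxc8 held a like share in both, 16.6% with ATRA (13.5 to 20.0) and 13.8% in the controls (8.26 to 21.2).

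A trend with transcript GC content ran through the comparison and set the ATRA libraries apart. Across 14136 tested genes, which are not independent replicates, Spearman's rho between GC content and the uncorrected log2 fold change was −0.745, and −0.00094 after GC correction. For replicate 2 over replicate 1 with ATRA, tested genes had a median log2 ratio of 0.85 in the decile of lowest GC content and −1.31 in the highest. The 10 genes have transcripts of 50.5% (Hoxc8) to 61.0% GC (Hoxd9). Hoxd9, above 97.1% of tested genes in GC content, had a ratio of −1.23, and Hoxc9 one of −1.58. Hoxd1 and Hoxc6, with ratios of 0.86 and 0.86, ran against the trend, Hoxc6 on only 5 and 7 counts. So did Hoxc8 and Hoxc4, with ratios of 0.47 and 0.32. These ratios use a prior count of 2, which shrinks them for genes of few counts. The 10 genes were therefore not ranked against the medians of their GC deciles.

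**Figure D3:**
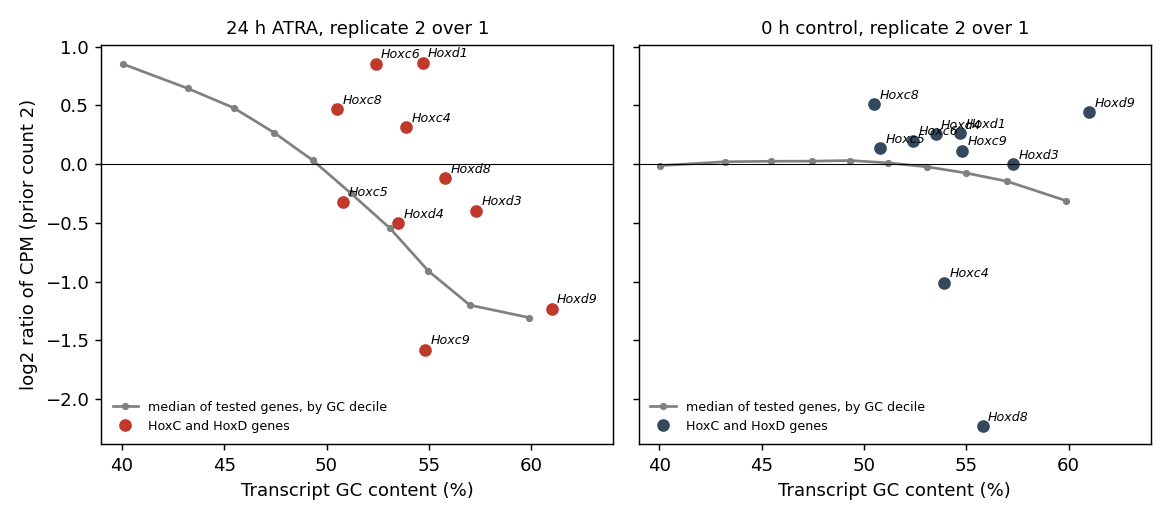
Log2 ratio of replicate 2 to replicate 1 (vertical axis, CPM with a prior count of 2) against transcript GC content in percent, for ATRA (left) and control libraries (right); points are the 10 genes and the grey line is the median of tested genes per GC decile. Among ATRA libraries the line falls to −1.31 while Hoxd1 and Hoxc6 stand at 0.86, and among controls Hoxd8 stands apart at −2.23.

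A GC correction per library raised the fitted fold of every tested gene of the 10. The log2 fold change became 5.58 for Hoxc4 (edgeR adjusted p = 0.0132), 6.91 for Hoxc5 (0.00192), 3.64 for Hoxc8 (0.0145), 4.84 for Hoxd1 (0.0282), 4.63 for Hoxd8 (0.0335) and 2.75 for Hoxd9 (0.0278). All 6 tested genes then passed, but so did 8.5% of all genes upward and 7.67% downward. With GC correction and no filter, 8 of the 10 genes passed, and Hoxc6 (1.46, edgeR adjusted p = 0.219) and Hoxd4 (1.91, edgeR adjusted p = 0.0636) did not; of all genes 6.81% then rose and 6.01% fell. Whether the GC trend is technical was not tested, and the offsets remove it either way. Its calls depended on the control libraries: without control replicate 1 or without control replicate 2, 0 of the 10 genes passed in the GC-corrected fit, where 35 and 25 genes passed in all. The log2 fold changes stayed near those of the full fit for Hoxc5 (6.61 and 7.07), Hoxc8 (3.30 and 3.95) and Hoxd1 (4.56 and 5.12). Hoxd8 moved most, to 8.92 and 3.88, and the values were 6.61 and 5.10 for Hoxc4 and 2.29 and 3.16 for Hoxd9. When ATRA replicate 1 or ATRA replicate 2 was left out instead, 6 and 7 of the 10 genes passed in the GC-corrected fit, beside 6684 and 4927 of all genes.

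HoxA and HoxB genes of the same groups had larger summed folds. The 8 HoxA genes summed to 318 ± 72.9 CPM with ATRA and 10.7 ± 0.474 CPM in the controls (mean ± SD, n = 2 each), 28.9-fold, and the 9 HoxB genes to 254 ± 24.9 and 8.09 ± 0.299 CPM, 31.6-fold, beside 9.84-fold for the 10 HoxC and HoxD genes (counting interval 8.07 to 12.1). Of these 17 HoxA and HoxB genes 16 were tested and 14 rose, with a median log2 fold change of 5.09. The 10 genes supplied 3.96% and 3.56% of all counts of the 27 HOX genes of groups 1 to 9 in the ATRA libraries and 10.8% and 10.7% in the controls. The exact 95% intervals ran from 3.11 to 4.42 over the ATRA libraries and from 8.08 to 13.8 over the controls. No test of this difference between clusters was made.

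Paralogs were set side by side. Per kb of exon and with ATRA, Hoxd1 stood at 0.931 CPM beside 31.4 for Hoxb1, and Hoxd3 at 0.175 beside 4.73 for Hoxa3 and 7.89 for Hoxb3. In group 4 Hoxc4 (2.17) was nearer to Hoxa4 (6.70) and Hoxb4 (5.58), while Hoxd4 was at 0.261. The values of Hoxd3 and Hoxd4 carry the uncertainty of their shared exons. In group 5 the fold of Hoxc5 was like those of its paralogs, with log2 fold changes of 6.79 ± 0.56 for Hoxc5, 6.52 ± 0.39 for Hoxa5 and 6.65 ± 0.72 for Hoxb5 (SE), although its level of 1.54 CPM per kb was below 24.6 for Hoxa5 and 4.78 for Hoxb5. In group 9 both Hoxc9 and Hoxd9 were above Hoxa9 (0.185 CPM per kb) by their means and below Hoxb9 (15.8 CPM per kb).

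**Figure D4:**
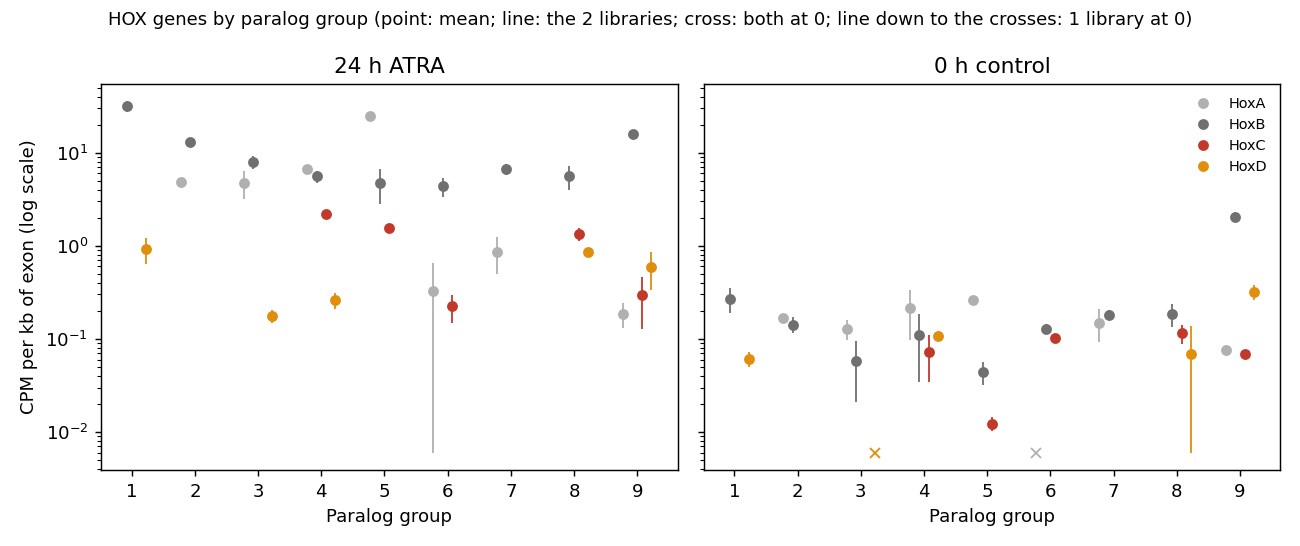
Level of HOX genes in CPM per kb of exon (vertical log axis) by paralog group, with ATRA on the left and controls on the right; points are means, lines join both libraries, and crosses or lines reaching down to them mark libraries at 0. Hoxd1 stands at 0.931 with ATRA beside 31.4 for Hoxb1, and Hoxc4 at 2.17 beside 6.70 for Hoxa4.

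Further along the same clusters no gene passed the test. The 8 genes of groups 10 to 13 summed to 7.54 ± 3.47 CPM with ATRA and 3.98 ± 0.217 CPM in the controls (mean ± SD, n = 2 each), and neither of the 2 tested genes passed. Hoxd13 had 42 and 79 counts with ATRA and 74 and 42 in the controls, a log2 fold change of 1.37 ± 0.55 (SE; edgeR adjusted p = 0.118). Hoxc13 had 16 and 13 counts with ATRA and 41 and 31 in the controls, at −0.12 ± 0.42 (SE; edgeR adjusted p = 0.834). Hoxc11 was at 0 in all libraries. In the controls Hoxd13, at 0.843 CPM per kb, and Hoxc13, at 0.541 CPM per kb, lay above all 10 genes of groups 1 to 9 in both libraries.

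No neighbour of the clusters passed without GC correction. Of 12 protein-coding genes beside them, 3 at each end, 11 were tested and none rose or fell, with a median log2 fold change of 0.45. Evx2, the homeobox gene next to Hoxd13, had no counts. Mtx2, 60661 bases from the HoxD genes at the Hoxd1 end, had a log2 fold change of 1.12 ± 0.35 (SE; edgeR adjusted p = 0.0819), and Smug1, the gene nearest to the Hoxc4 end, 0.58 ± 0.33 (edgeR adjusted p = 0.216). After GC correction Atp5g2 passed, at 1.22 (edgeR adjusted p = 0.0409), against −0.88 without it. Of 22 listed noncoding RNA genes of the HOX clusters 10 had a row and 4 had a count. Hotair of the HoxC cluster and the microRNA gene Mir10b beside Hoxd4 were at 0 in every library. Mir10a, the highest of them in mean CPM, had 5 and 10 counts with ATRA and 0 and 0 in the controls. The list as a whole summed to 15 and 15 counts with ATRA and 27 and 6 in the controls.

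Genes that act with or upstream of HOX genes moved as follows. Of 12 tested HOX cofactor and CDX genes 4 rose and none fell, and after GC correction 8 rose and 1 fell. The log2 fold change was 4.90 ± 0.35 for Meis2 (SE; edgeR adjusted p = 0.0179) and 4.11 ± 0.35 for Meis1 (SE; edgeR adjusted p = 0.0196), whose proteins bind DNA together with HOX proteins. Of 13 tested retinoic acid receptor, turnover and target genes 7 rose and none fell, with or without GC correction, among them Rarb, the receptor gene that retinoic acid induces, at 7.80 ± 0.49, and Cyp26a1, whose enzyme breaks retinoic acid down, at 4.94 ± 0.39 (SE). Of 19 Polycomb genes none passed, with a median log2 fold change of 0.06; after GC correction 2 rose and 3 fell. Suz12, the most abundant of these and a core subunit of the complex that methylates histone H3, was at 1.02 ± 0.37 (edgeR adjusted p = 0.102), or 0.08 after GC correction.

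The genes outside the HOX family whose pattern was most like the summed counts of the 10 genes were 5430402O13Rik, Pmp22, Chrna3, Tmtc1 and Mira. Likeness was the root mean square difference of centred log2 CPM over the 4 libraries, which was 0.0584, 0.0914, 0.102, 0.130 and 0.148. With 4 libraries in 2 groups this mostly selects genes of the same fold with close replicates. 5430402O13Rik had 33 and 25 counts with ATRA and 5 and 4 in the controls, and Pmp22, a myelin gene, 3389 and 2585 with ATRA and 752 and 548 in the controls.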

How the data were processed

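RNA sequencing counts of 4 libraries were used. The authors deposited 1 table of whole-number read counts per library, without normalization. HTSeq 0.6.0, TopHat2 2.0.7, Cuffdiff 2.0.2, Cufflinks 2.0.2 and the build mm10 are listed, with no role, per the submitters' processing notes. Annotation, read length and strand setting: not given in the sources used here. Reads of overlapping or antisense genes therefore could not be told apart. The longest exact stretch that 1 of the 10 genes shares with a HOX gene of another cluster was 20 (Hoxc4) to 50 bases (Hoxc9). The 5 summary lines were left out; reads in no gene made up 63.4% to 66.2% of counted reads.

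GENCODE M21 (GRCm38, which is mm10) gave positions for 21777 symbols directly and 1247 by an older symbol. Counts were fitted with edgeR 4.0.16 in R 4.3.3: filter by group, TMM factors, robust quasi-likelihood fit with bias-adjusted deviances, F test of ATRA against control over all genes, no covariate. SE is the absolute log2 fold change over the root of F. CPM use TMM-scaled library sizes, and log2 CPM a prior count of 2. The GC correction fitted each library's deviation in log2 CPM against transcript GC content with a spline of 5 degrees of freedom (MASS 7.3.60.0.1, using mean log2 CPM over 1) and used the fit as offsets. Ratios of summed counts have exact 95% intervals (SciPy 1.17.1), and floors are 3 counts. Scripts were tested on simulated data. These held no GC trend, and changes were set only in genes with control levels above those of most of the 10 genes. Replicates were not within counting error of each other: chi-square over its degrees of freedom was 76.9 for ATRA and 9.65 for the controls. Alternatives were DESeq2 1.42.0, its size factors, no filter, a replicate block, GC correction and leaving out each library.

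The genes and lists were chosen with earlier results of these data known. Named are the 10 genes; their HOX paralogs and genes of groups 10 to 13; in each other list the 3 called genes of smallest p, or else the most abundant; the 3 nearest genes at each cluster end; and the 5 most alike in pattern. Of the names this rule gives for the marker lists, the report prints counts and sums only, and some other names it gives are not reported here.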

Additional observations from a re-analysis of the deposited data

How the results depend on the processing

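Every fold change of the 6 tested genes stayed positive in all 16 alternatives. They ranged from 6.50 to 7.07 for Hoxc5, 4.26 to 6.61 for Hoxc4, 3.20 to 3.95 for Hoxc8, 3.39 to 5.69 for Hoxd1, 2.63 to 8.92 for Hoxd8 and 0.11 to 3.16 for Hoxd9 on the log2 scale. Hoxc4 and Hoxc5 lost their calls in 2 alternatives, the GC-corrected fits without a control library, and Hoxc8 in 4, with edgeR adjusted p up to 0.152. Instead of 3 of the 10 genes, 4 passed with DESeq2 size factors, 5 with DESeq2's Wald test, 6 with GC correction, and 8 with GC correction and no filter, an alternative chosen after seeing the data. With the earlier quasi-likelihood method, also chosen then, 2 passed. The numbers of all genes, 161 in the fit reported, were 603, 4282, 2306, 2421 and 86 in the same order. With a library left out, 3 to 6 of the 10 genes passed, or 0 to 7 with GC correction. Of all genes 10289, 7302, 125 and 662 passed without ATRA replicates 1 and 2 and control replicates 1 and 2 in turn, and 6684, 4927, 35 and 25 with GC correction. A lone library was given the spread of the other pair.

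The libraries share only replicate numbers. The differences between replicates 1 and 2 of the groups correlated at 0.183 across genes, and at −0.035 after GC correction. With a replicate block 5 of the 10 genes and 4401 of all genes passed, and 6 and 2659 with GC correction and the replicate block. With a floor at the exact upper bound of a count of 0 (3.69 counts), Hoxd3 was at least 11.1-fold higher instead of 13.7-fold. Depth limits Hoxc6, Hoxc9, Hoxd3 and Hoxd4, which held 19 or fewer counts in each group and were too low for the filter, and the difference of Hoxc6 was not detectable at this depth.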
